A study of Mus musculus with 2 samples.

Results

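The genes examined were Pf4, Itga2b, Vwf, Gp9, Ppbp and Cd9, which are 6 of the 32285 genes listed for each of 2 single-cell libraries of mouse bone marrow. They were chosen by symbol as genes of megakaryocytes and platelets, and each symbol named 1 row of the count table. The Ctrl library came from littermates that the methods write as Mx1-Cre Map4k4-/-, and the Map4k4-cKO library from Mx1-Cre Map4k4 f/f mice whose floxed alleles had been deleted with poly I:C. All mice were on C57BL/6 and 13 to 14 weeks old. Whether the Ctrl mice received poly I:C is not stated in the methods. Mx1-Cre is switched on by interferon and acts in many tissues, so the deletion is not limited to 1 blood lineage. How many mice went into a library is not given in the sources used here. In each library, 2 parts of c-Kit+ cells were mixed with 3 parts of whole marrow after lysis of red cells, so shares of cells below are shares of this mixture and not of marrow. With 1 library per condition, nothing below was tested across mice or samples, and p-values are left out. All intervals are 95% intervals that cover counting error only.

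Megakaryocytes are the large polyploid cells of the marrow that shed platelets. They arise from haematopoietic stem cells through progenitors shared with the red cell lineage, under transcription factors such as GATA1 and FLI1. As they mature they load granules with secreted proteins and place on their surface the receptors by which platelets stick to a damaged vessel. Among the 6 genes, Pf4 (platelet factor 4, or CXCL4) and Ppbp (CXCL7) encode chemokines stored in platelet granules. Vwf encodes von Willebrand factor, the large adhesive protein of megakaryocytes and endothelium. Itga2b encodes the integrin chain CD41, which pairs with the product of Itgb3 to bind fibrinogen and is also made by early progenitors and mast cells. Gp9 encodes a subunit of the GPIb-IX-V receptor for von Willebrand factor. Cd9 encodes a tetraspanin that is found on platelets and on many other cells.

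Pf4 (ENSMUSG00000029373) lies on chromosome 5 of GRCm38 at chr5:90772435-90773383, on the plus strand. Ppbp (ENSMUSG00000029372) lies beside it on the same strand at chr5:90768518-90770063, and 2371 bp separate the end of Ppbp from the start of Pf4. Itga2b (ENSMUSG00000034664) lies at chr11:102453297-102470122 on the minus strand, and Gp9 (ENSMUSG00000030054) at chr6:87778072-87779768 on the plus strand. Cd9 (ENSMUSG00000030342) at chr6:125460266-125494791, on the minus strand, and Vwf (ENSMUSG00000001930) at chr6:125546774-125686679, on the plus strand, are 51982 bp apart. These positions are those of GENCODE vM21. Of the genes that overlap a member there, Gm28809 (126 UMIs in Ctrl and 113 in Map4k4-cKO) and Gm26728 (13 and 9 UMIs) lie opposite Cd9 and are counted in the files.

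The sequences around the transcription starts are shown for the 4 genes below because all were highest in the megakaryocyte gate, and because Pf4 and Ppbp are neighbours whose RNA levels were far apart. RefSeq promoters of GRCm38.p6, 250 bases before to 50 after the start, were at hand for 5 of the 6 genes. Capitals mark matches on either strand to a GATA word or an ETS word. The GATA words searched were AGATAA and TGATAA, and with a final G also AGATAG and TGATAG, and the ETS words AGGAAG and CGGAAG. They are from chr5:90772185-90772484 for Pf4, chr5:90768268-90768567 for Ppbp, chr11:102469834-102470133 for Itga2b and chr6:87777820-87778119 for Gp9, each read 5′ to 3′ on the strand of the gene.
Pf4: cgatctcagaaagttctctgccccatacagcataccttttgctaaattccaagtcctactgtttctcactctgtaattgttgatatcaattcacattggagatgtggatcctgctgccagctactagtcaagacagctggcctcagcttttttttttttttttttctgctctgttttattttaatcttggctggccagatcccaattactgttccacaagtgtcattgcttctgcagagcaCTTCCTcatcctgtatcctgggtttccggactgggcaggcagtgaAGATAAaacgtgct
Ppbp: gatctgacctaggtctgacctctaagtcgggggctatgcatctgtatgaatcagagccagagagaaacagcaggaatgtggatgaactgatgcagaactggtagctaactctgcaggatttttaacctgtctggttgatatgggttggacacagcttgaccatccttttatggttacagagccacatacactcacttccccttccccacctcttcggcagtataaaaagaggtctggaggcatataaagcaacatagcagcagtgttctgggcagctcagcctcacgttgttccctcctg
Itga2b: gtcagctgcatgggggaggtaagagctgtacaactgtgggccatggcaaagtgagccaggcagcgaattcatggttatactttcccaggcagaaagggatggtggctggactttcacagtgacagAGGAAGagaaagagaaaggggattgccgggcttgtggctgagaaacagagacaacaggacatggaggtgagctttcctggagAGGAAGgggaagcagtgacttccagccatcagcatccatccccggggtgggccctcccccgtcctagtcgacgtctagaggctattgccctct
Gp9: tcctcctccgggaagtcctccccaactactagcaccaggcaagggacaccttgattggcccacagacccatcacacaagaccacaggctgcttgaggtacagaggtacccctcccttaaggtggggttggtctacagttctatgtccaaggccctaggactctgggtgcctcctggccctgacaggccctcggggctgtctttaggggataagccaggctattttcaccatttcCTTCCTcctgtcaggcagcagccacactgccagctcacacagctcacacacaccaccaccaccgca

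The Pf4 window held 1 GATA word, 36 bases after the start, and 1 ETS word on the opposite strand that began 9 bases before the start. The Itga2b window held 2 ETS words, at 125 and 43 bases before the RefSeq start, which lies 239 bp from the start in GENCODE. Gp9 held 1 ETS word, and the Cd9 window, which is not printed, also held 1. The Ppbp window held neither word. No match overlapped another. Of all 32851 promoters of this length, 29.8% held a GATA word, 46.5% an ETS word and 12.6% both, so these words are common and their presence does not set the members apart.

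The Ctrl library held 10220 barcodes with 71527701 UMIs (unique molecular identifiers, which tag single captured RNA molecules) and the Map4k4-cKO library 6872 barcodes with 64393950 UMIs. After filtering, 9965 and 6718 cells were kept, with medians of 4111 and 6243.5 UMIs per cell. Map4k4 itself had 5176 UMIs, or 72.6 CPM (UMIs of the gene times 1000000 over all UMIs of the cells), in Ctrl and 4132 UMIs, or 64.3 CPM, in Map4k4-cKO. A count of 3′ tags per gene need not cover the floxed exons, so this does not check the labels, and every direction below rests on them. The libraries shared 3010 barcode strings, none with the same total of UMIs in both, and 1 shared string carried Pf4 and Itga2b in both libraries.

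Cells were placed in classes by marker genes that did not include the 6 members. A cell took a class when it held at least 3 different markers of it and their share of its UMIs was the highest relative to the mean share over both libraries. The megakaryocyte gate used 12 markers and caught 72 Ctrl cells, 0.723% of the kept cells (exact binomial interval 0.566 to 0.909%), and 21 Map4k4-cKO cells, or 0.313% (0.194 to 0.477%). A stricter gate with 4 markers kept 60 cells (0.602%, 0.460 to 0.774%) and 11 cells (0.164%, 0.0818 to 0.293%). The gated cells were deeply sampled, with medians of 12926 UMIs in Ctrl and 15906 in Map4k4-cKO. In Ctrl 10 of the 12 markers were found in them, and in Map4k4-cKO 9. Rab27b, needed for platelet granule secretion, was in 91.7% and 76.2% of the gated cells, the integrin gene Itgb3 in 90.3% and 71.4%, and Gp5, of the same receptor complex as Gp9, in 76.4% and 81.0%. Tubb1, the tubulin of platelets, and Cmtm5 were at 0 UMIs in both libraries, and Gp6, the collagen receptor of platelets, had 3 UMIs in Ctrl and 0 in Map4k4-cKO. The label of the gate therefore rests on the other 9 markers.

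Cells at the edge of the gate held less RNA of the members. In Ctrl, 13 of the 72 gated cells held exactly 3 markers and had 2077 CPM of Pf4, and the 103 cells outside with exactly 2 markers had 174 CPM. In Map4k4-cKO, 10 of the 21 gated cells held exactly 3 markers and had 852 CPM of Pf4, and the 48 cells with 2 markers had 11.5 CPM. A larger part of the Map4k4-cKO gate thus sat at the edge. Markers of other cell types were also present in the gated cells. The 9 HSC/MPP markers (haematopoietic stem cells and multipotent progenitors) had medians of 580 CPM per gated Ctrl cell and 509 CPM per gated Map4k4-cKO cell. In sum over the gated cells they had 548 and 528 CPM, against 190 and 81.8 CPM over all cells. The 5 secondary granule markers had medians of 3052 CPM (1012 to 100888 CPM) and 1454 CPM (870 to 3349 CPM), against 11618 and 39013 CPM over all cells of the libraries. Of the 8 endothelial markers, 4 were seen in the gated cells of each library. They had 65.1 and 97.8 CPM in sum, against 10.6 and 6.06 CPM over all cells, so they were higher in the gate. In 8 Ctrl and 4 Map4k4-cKO gated cells another class reached more than 50% of the megakaryocyte ratio, and no cell was removed as a doublet.

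In the gated Ctrl cells, Pf4 was the most abundant member at 8939 CPM (exact Poisson interval 8768 to 9112), followed by Itga2b at 758 CPM (709 to 810), Cd9 at 651 CPM (606 to 699), Vwf at 354 CPM (321 to 390), Gp9 at 114 CPM (95.4 to 135) and Ppbp at 26.6 CPM (18.0 to 37.7). The intervals of Itga2b and Cd9 did not overlap, and neither did those of any other neighbours in this order. In the gated Map4k4-cKO cells the order was the same, with Pf4 at 5401 CPM (5163 to 5648), Itga2b at 824 CPM (733 to 924), Cd9 at 483 CPM (414 to 561), Vwf at 243 CPM (195 to 300), Gp9 at 109 CPM (77.5 to 149) and Ppbp at 33.5 CPM (17.3 to 58.6). These are counts of 3′ ends, 1 per captured molecule, so they were not divided by transcript length. Pf4 and Ppbp, which share a locus and a granule, thus stood furthest apart.

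**Figure D1:**
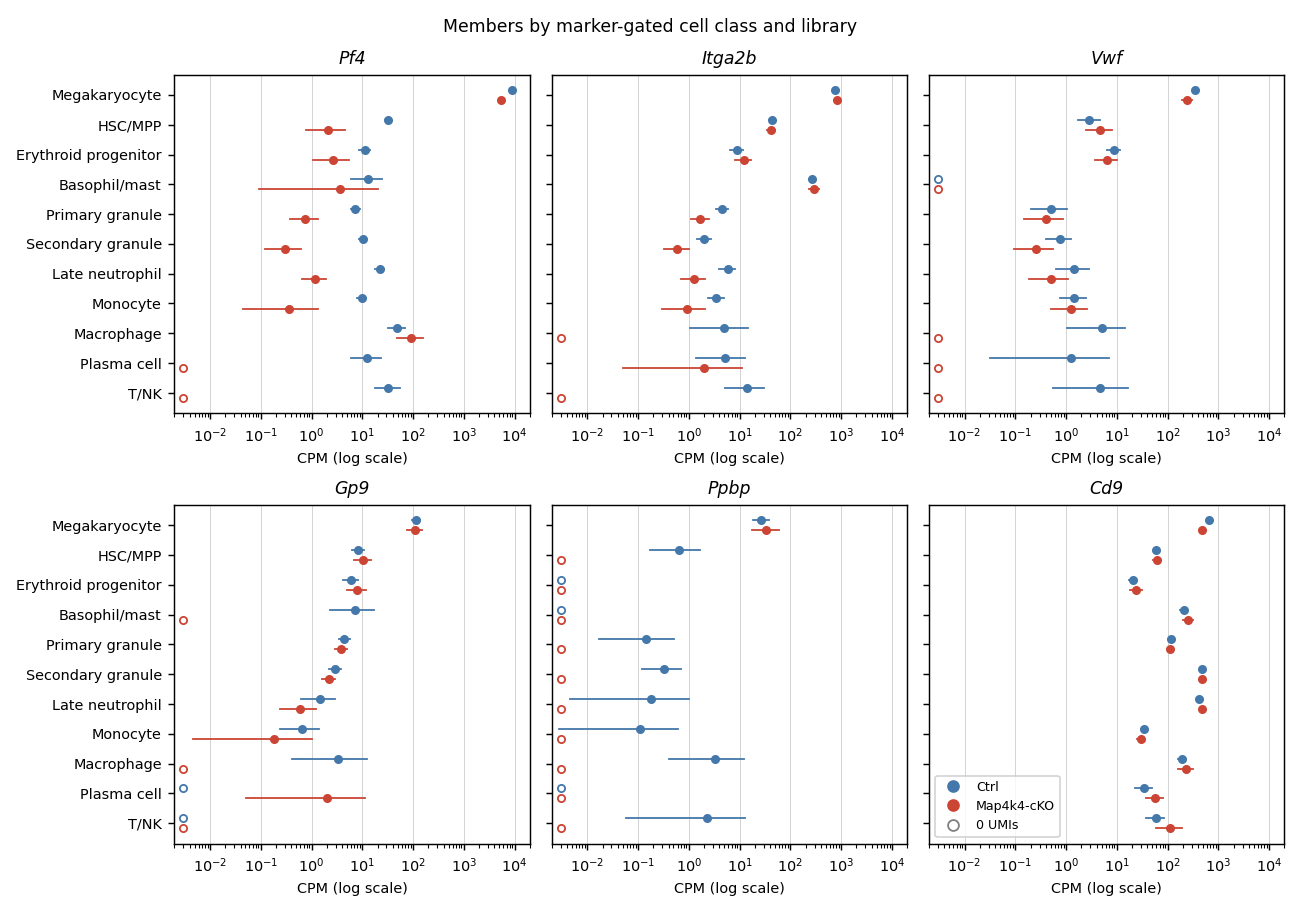
CPM on a log axis (x) of each member in the 11 marker-gated classes with at least 20 cells in both libraries (y). Points are UMIs summed over the cells of a class, bars are exact 95% Poisson intervals, and open circles at the left edge mark classes with 0 UMIs. Pf4, Vwf and Ppbp peak in the megakaryocyte gate by a wide margin, Itga2b has a second peak in basophil/mast cells, and Cd9 is nearly as high in granulocytes.

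Single gated cells varied widely. In Ctrl, Pf4 ran from 0 to 1231 UMIs per gated cell with a median of 65.5, and in Map4k4-cKO from 0 to 883 with a median of 24. It was absent from 6 of the 72 Ctrl cells and from 7 of the 21 Map4k4-cKO cells. All of these cells without Pf4 held only 3 or 4 markers, although they were not shallow, with medians of 11646 and 16485 UMIs. Itga2b ran from 0 to 104 UMIs in Ctrl with a median of 7, and from 0 to 56 in Map4k4-cKO with a median of 10. Vwf had medians of 3 and 4 UMIs and maxima of 65 and 29. Gp9 had a median of 1 UMI in both libraries, with maxima of 21 and 9. Ppbp had a median of 0 UMIs in both, and Cd9 had medians of 6 and 4 UMIs and maxima of 108 and 46. For all these genes the ranges of the libraries overlapped from 0 upwards. A few cells carried most of the Pf4 RNA. The 8 cells with most Pf4 held 50.5% of all Pf4 UMIs of the Ctrl library and 90.6% of those of the Map4k4-cKO library, and the top 2 held 20.1% and 65.1%.

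In Ctrl, gated cells with more Pf4 also held more of the other members. The gated cells were split by their Pf4 level into cells under 1000 CPM (20 in Ctrl, 9 in Map4k4-cKO), from 1000 to 10000 CPM (31 and 10) and over 10000 CPM (21 and 2). These limits and the genes compared were chosen after the values were seen, and the values are a description. The lowest step included the gated cells without Pf4 (6 in Ctrl, 7 in Map4k4-cKO), which held only 3 or 4 markers, near the edge of the gate. The part of the gate's edge in the differences between steps or libraries was not tested. In Ctrl, Itga2b went from 302 CPM (236 to 381) through 734 CPM (657 to 817) to 1004 CPM (917 to 1098) in these steps. Vwf went from 106 CPM (68.7 to 157) through 342 CPM (290 to 401) to 486 CPM (425 to 552), and Gp9 from 46.7 CPM (23.3 to 83.6) through 84.5 CPM (59.8 to 116) to 174 CPM (139 to 216). Cd9 went from 255 CPM (195 to 328) to 957 CPM (871 to 1048) at the ends. Ppbp had 0 UMIs in the cells under 1000 CPM of Pf4, then 14 and 17 UMIs.

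Kit and Gata2 followed the opposite order in Ctrl. Kit, the stem cell factor receptor, was at 293 CPM (228 to 371) in the Ctrl cells with least Pf4 and 70.6 CPM (48.9 to 98.6) in those with most. Gata2, a transcription factor of progenitors, was at 395 CPM (319 to 484) and 149 CPM (117 to 188). Gata1 was at 80.7 CPM (48.6 to 126) and 56.0 CPM (36.9 to 81.5), with intervals that overlapped. Gp1ba, the ligand-binding chain of the receptor that Gp9 belongs to, was at 25.5 CPM (9.36 to 55.5), 11.1 CPM (3.61 to 25.9) and 110 CPM (82.4 to 144) over the 3 steps. Timp3, an inhibitor of matrix proteases, was at 46.7 CPM (23.3 to 83.6), 122 CPM (92.1 to 159) and 481 CPM (422 to 548). The stem cell gene Hlf and the proliferation gene Mki67 followed no such order, at 25.5, 71.1 and 29.1 CPM and at 1288, 625 and 1388 CPM. The intervals of Cd34, a marker of progenitors, overlapped between the outer steps (42.5 CPM, 20.4 to 78.1, and 12.5 CPM, 4.57 to 27.1).

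In Map4k4-cKO the steps of Itga2b were 432, 912 and 1267 CPM, those of Vwf 8.0, 295 and 509 CPM, and those of Kit 248, 39.4 and 62.1 CPM. In the step from 1000 to 10000 CPM, which is wide, the libraries' intervals overlapped for Itga2b (734 CPM in Ctrl, 912 CPM in Map4k4-cKO), Vwf (342 and 295 CPM), Gp9 (84.5 and 91.9 CPM) and Cd9 (531 and 571 CPM). They did not overlap there for Plek (863 and 512 CPM), Nrgn, a calmodulin-binding protein (460 and 669.5 CPM), and Top2a, of dividing cells (402 and 229.7 CPM). In the cells with least Pf4, Vwf was at 106 CPM (68.7 to 157) in Ctrl and 8.0 CPM (0.202 to 44.6) in Map4k4-cKO, the latter from 1 UMI. Timp3 was at 0 UMIs, 59.1 CPM (27.0 to 112) and 62.1 CPM (20.2 to 145) over the steps in Map4k4-cKO, the last from 5 UMIs. Only 2 cells made up the highest step there, so its values rest on these cells.

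**Figure D2:**
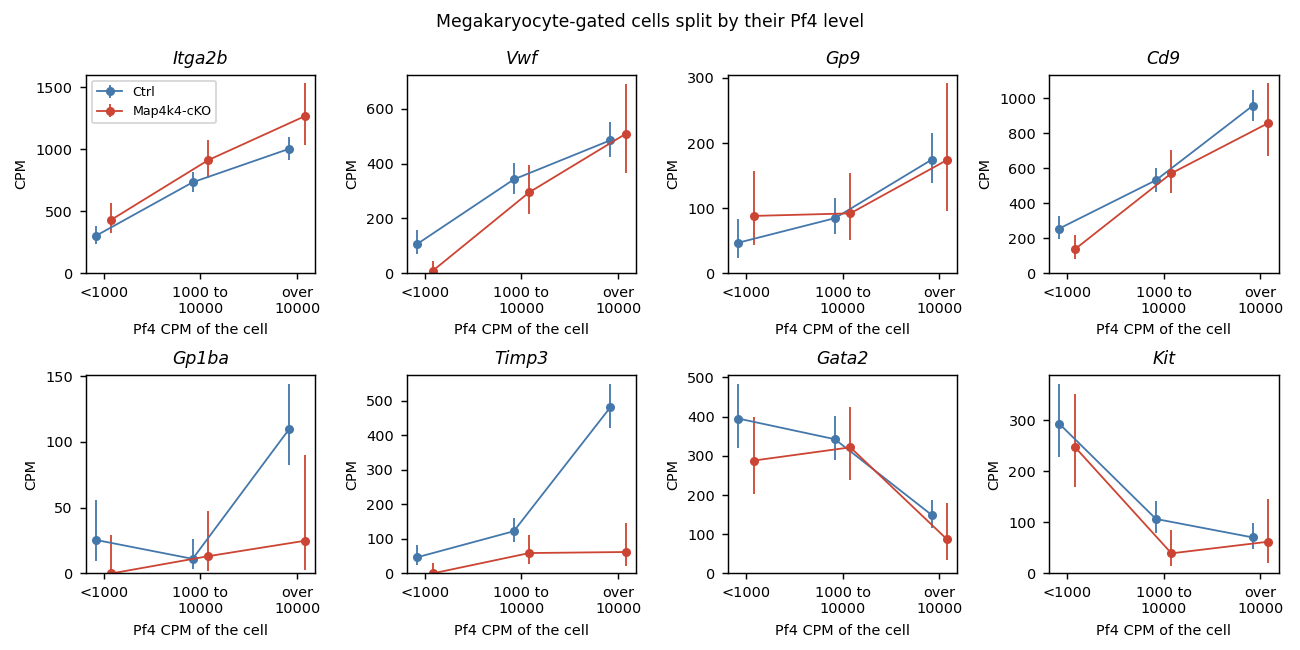
CPM (y) of 8 genes in megakaryocyte-gated cells, split by the Pf4 CPM of the cell (x), in Ctrl (20, 31 and 21 cells) and Map4k4-cKO (9, 10 and 2 cells). Bars are exact 95% Poisson intervals of the summed UMIs. In Ctrl, Itga2b, Vwf, Gp9 and Cd9 are higher in cells with more Pf4 while Gata2 and Kit are lower, and Gp1ba and Timp3 are high in the top Ctrl cells.

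The gate was also compared with the count of barcodes that held Pf4 and Itga2b together. There were 149 such barcodes in Ctrl, 1.50% of kept cells (1.27 to 1.75%), and 20 in Map4k4-cKO, 0.298% (0.182 to 0.459%). They held 92.4% of the Pf4 UMIs and 60.4% of the Itga2b UMIs of Ctrl, and 96.1% and 44.9% of those of Map4k4-cKO. They also held 72.3% and 56.7% of Vwf, 33.6% and 19.0% of Gp9, and 5.43% and 0.841% of Cd9. Of the 921 Ctrl cells with Pf4, 16.2% also had Itga2b, and of the 593 with Itga2b, 25.1% had Pf4. In Map4k4-cKO these shares were 29.9% of 67 cells and 11.4% of 176 cells.

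Not all of these barcodes were megakaryocyte-gated. In Ctrl, 65 of the 149 lay in the gate, 34 in the HSC/MPP class, 12 were ungated, 9 were gated as erythroid progenitors and 8 as basophil/mast cells. In Map4k4-cKO, 13 of the 20 lay in the gate. The 84 Ctrl barcodes outside the gate had a median of 1 Pf4 UMI, against 73 for those inside. With at least 2 UMIs of each gene required, 76 Ctrl barcodes were left, or 0.763%, and 14 Map4k4-cKO barcodes, or 0.208%. The cells carrying all 6 members numbered 12 in Ctrl and 3 in Map4k4-cKO, and 28 and 7 carried 5 of them.

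**Figure D3:**
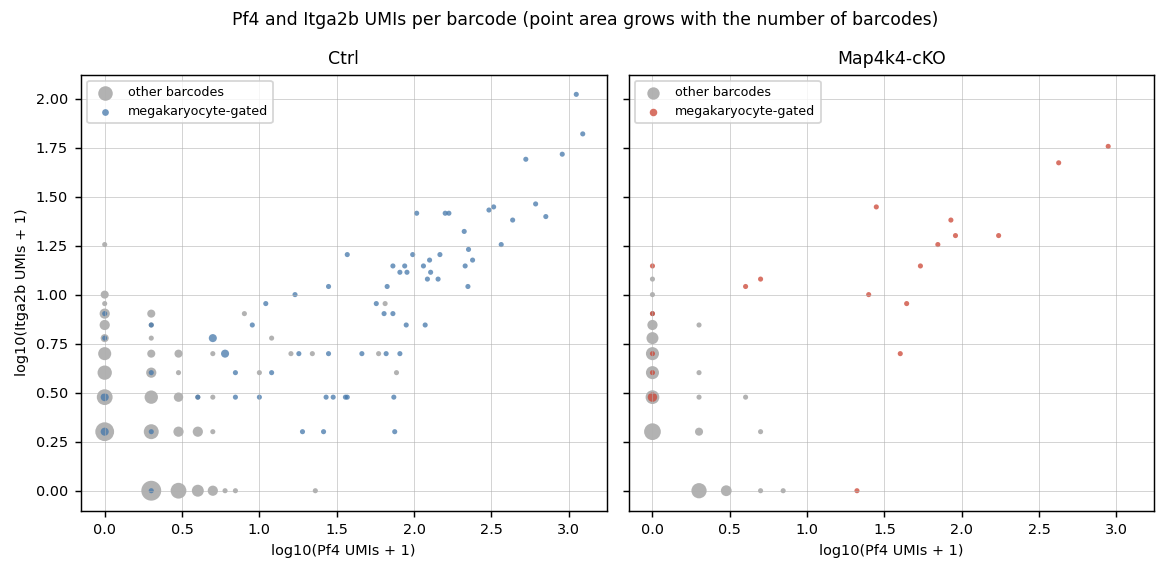
UMIs of Pf4 (x) and Itga2b (y) per barcode, each as log10 of the count plus 1, for kept barcodes with a UMI of either gene in Ctrl (left) and Map4k4-cKO (right). Coloured points are megakaryocyte-gated, grey points are other barcodes, and larger points stand for more barcodes. Gated cells spread up to 1231 Pf4 UMIs, and grey barcodes crowd at 1 Pf4 UMI in Ctrl far more than in Map4k4-cKO.

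By the rule set for naming genes, the 10 with the highest CPM in the barcodes with Pf4 and Itga2b relative to all other kept cells were Pde3a, Timp3, Treml1, Gnaz, Cavin2, Gucy1b1, Kcnj5, Mrvi1, Rbpms2 and Myom1 in Ctrl. In Map4k4-cKO they were Cavin2, Treml1, Gucy1a1, Trpc6, Rab27b, Vwf, Mmrn1, F2rl2, Ehd3 and Gp5. Cavin2, a caveola coat protein, had 283 CPM inside and 1.45 CPM outside in Ctrl, and 250.1 and 0.517 CPM in Map4k4-cKO. Treml1, a receptor kept in platelet granules, had 74.1 and 0.333 CPM in Ctrl, and 80.8 and 0.188 CPM in Map4k4-cKO. Pde3a, a phosphodiesterase, had 21.8 CPM inside and 0.0579 CPM outside in Ctrl, and the guanylate cyclase subunit Gucy1b1 had 24.5 and 0.130 CPM. Gucy1a1, its partner subunit, had 53.0 and 0.172 CPM in Map4k4-cKO. Mrvi1, the IP3 receptor partner of cGMP kinase, had 53.6 and 0.405 CPM in Ctrl.

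Over the whole libraries, Pf4 had 11678 UMIs in Ctrl and 2004 in Map4k4-cKO, or 164 CPM (161 to 167) and 31.2 CPM (29.8 to 32.6). Itga2b had 24.3 CPM (23.2 to 25.5) and 9.64 CPM (8.89 to 10.4), Vwf 8.16 CPM (7.51 to 8.86) and 2.33 CPM (1.98 to 2.74), and Ppbp 0.744 CPM (0.557 to 0.973) and 0.187 CPM (0.0965 to 0.326). These 4 members were lower in Map4k4-cKO by more than 2-fold. Their log2 ratios of Map4k4-cKO over Ctrl were -2.39 (-2.46 to -2.32) for Pf4, -1.34 (-1.47 to -1.20) for Itga2b, -1.81 (-2.07 to -1.54) for Vwf and -1.99 (-3.03 to -1.07) for Ppbp, the last from 53 and 12 UMIs. Gp9 was at 6.13 CPM (5.57 to 6.73) and 3.28 CPM (2.86 to 3.76), a log2 ratio of -0.90 (-1.14 to -0.66). Cd9 went the other way, from 216 CPM (212 to 219) to 303 CPM (299 to 308), a log2 ratio of 0.49 (0.46 to 0.52). As background, 20.4% of the 14406 genes with at least 20 UMIs over both libraries had a log2 ratio of -1 or less and 1.54% had 1 or more, and their median was -0.52. Median-of-ratios scaling raises every ratio by 0.52, which takes Itga2b to -0.82, inside the 2-fold limit, and Cd9 to 1.01, past it. It leaves 1155 of the 14406 genes at -1 or less and 708 at 1 or more, so lower values in Map4k4-cKO are best read relative to the median of all genes.

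Within the megakaryocyte gate, no member differed by 2-fold. Among the 7712 genes with at least 20 UMIs in the gated cells, 9.26% had a log2 ratio of -1 or less and 2.58% had 1 or more, with a median of -0.10. The log2 ratio of Itga2b was 0.12 (-0.07 to 0.31), that of Gp9 -0.06 (-0.62 to 0.46) and that of Ppbp 0.34 (-0.76 to 1.34), and all 3 intervals held 0. Pf4 was at -0.73 (-0.80 to -0.66), Vwf at -0.54 (-0.89 to -0.21) and Cd9 at -0.43 (-0.68 to -0.19). These last values depended on few cells and on the edge of the gate. With at least 4 markers required, Pf4 was at -0.17, Vwf at -0.08 and Cd9 at -0.11, from 60 Ctrl and 11 Map4k4-cKO cells. Without the 2 cells with most Pf4 in each library, Pf4 was at -1.77 and Vwf at -0.90.

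To see how far the mix of classes alone would carry the members, the Ctrl CPM of each class were weighted by the UMIs of that class in Map4k4-cKO, over 19 classes including ungated cells. This gave log2 ratios of -1.35 for Pf4, -1.07 for Itga2b, -1.26 for Vwf, -0.63 for Gp9, -0.88 for Ppbp and 0.44 for Cd9. The value for Cd9 lay near its whole-library ratio of 0.49, and those of the other members lay part of the way. The megakaryocyte gate held 1.64% of the Ctrl UMIs and 0.557% of the Map4k4-cKO UMIs.

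**Figure D4:**
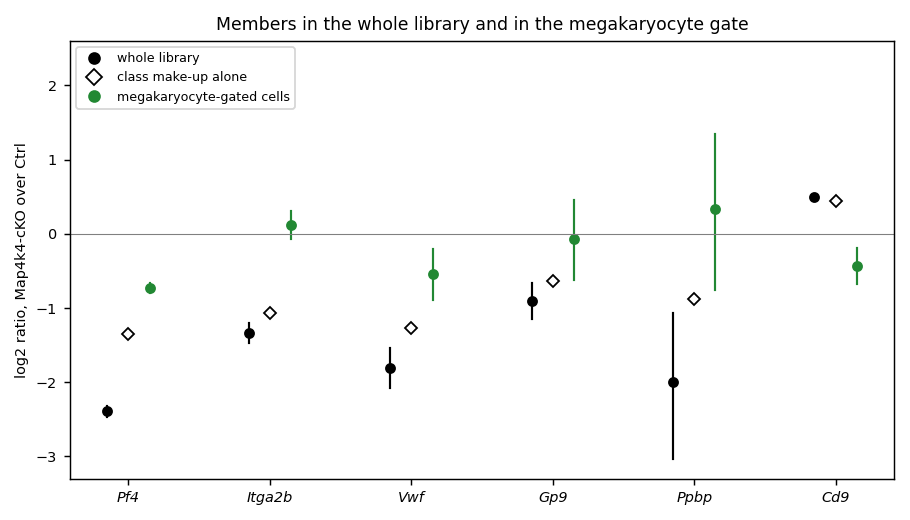
Log2 ratio of Map4k4-cKO over Ctrl (y) for the 6 members (x) over the whole libraries (black, with exact 95% binomial intervals), with Ctrl levels in the class make-up of Map4k4-cKO (open diamonds), and in megakaryocyte-gated cells (green, with intervals). Whole-library ratios run from -2.39 for Pf4 to 0.49 for Cd9, and the ratios in the gate lie between -0.73 and 0.34.

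Outside the gate, Pf4 was a thin signal spread over all larger classes in Ctrl. Of 9893 Ctrl cells outside, 855 had Pf4, and 762 of these, or 89.1%, had 1 UMI. In Map4k4-cKO, 53 of 6697 such cells had Pf4, 44 of them with 1 UMI. Lymphoid cells and plasmacytoid dendritic cells (pDC), which should lack this gene, served as the measure of background. Of the 784 such Ctrl cells, 8.67% had a Pf4 UMI (6.80 to 10.9%) at a median of 3112 UMIs per cell, and of the 77 such Map4k4-cKO cells 0 had one, which allows a share of up to 3.90%, at a median of 6693 UMIs. After thinning to 1000 UMIs per cell, Pf4 was in 2.90% of these Ctrl cells, 2.11% of HSC/MPP cells, 2.09% of late neutrophils, 1.58% of erythroid progenitors and 1.11% of monocytes. All of these thinned shares lie at or below the background. Ungated Ctrl cells, at 98.8 CPM of Pf4, lay above it, with 5.02% (3.67 to 6.68%) after thinning. Unthinned, Pf4 was in 16.8% of Ctrl HSC/MPP cells (13.6 to 20.5%) and 18.1% of erythroid progenitors (14.1 to 22.7%). Both shares lay above the 8.67% of the background cells, but these classes were deeper, with medians of 11292 and 13762 UMIs. The shares thus do not settle whether Pf4 was expressed there. The differences between the libraries in all these classes are not read as changes within them. After thinning to 1000 UMIs, Pf4 was in 77.8% of the gated Ctrl megakaryocytes and 47.6% of the gated Map4k4-cKO ones.

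In Ctrl the low Pf4 signal came with fewer Pf4 UMIs per Itga2b UMI than the sum of the gated megakaryocytes. This number was 2.83 in the lymphoid and pDC cells with under 3 megakaryocyte markers, from 68 and 24 UMIs. It was 4.1 in all lymphoid and pDC cells, 11.8 in the gate, and 6.55 in the gate of Map4k4-cKO. The value of the Ctrl gate rests largely on few cells, as 8 cells held 50.5% of the Pf4 UMIs. The source of the low signal was not tested. In the HSC/MPP class, Pf4 was at 32.7 CPM in Ctrl and 2.14 CPM in Map4k4-cKO, a log2 ratio of -3.94 (-5.40 to -2.79), and with at least 4 markers at 19.6 and 3.05 CPM. In secondary granule neutrophils it was at 10.2 and 0.299 CPM, a log2 ratio of -5.09 (-6.42 to -4.02). T/NK cells had 32.4 CPM in Ctrl and 0 of 20 cells with Pf4 in Map4k4-cKO, which allows a share of up to 15%. The total of Pf4 UMIs in gated cells was 10431 in Ctrl and 1933 in Map4k4-cKO. Beyond the gate, 7 Ctrl cells and 0 Map4k4-cKO cells held 10 or more Pf4 UMIs. They were 4 ungated cells, 2 HSC/MPP cells with 76 and 11 UMIs, and 1 ProB-gated cell with 64 Pf4 UMIs, 36001 UMIs in all and 5 megakaryocyte markers.

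Macrophages were the exception among the other classes in Map4k4-cKO. Pf4 was at 48.7 CPM (32.6 to 69.9) in 154 Ctrl macrophage-gated cells and 90.5 CPM (48.2 to 155) in 41 Map4k4-cKO cells, where 6 cells, or 14.6%, held 13 UMIs. The intervals overlapped, and the log2 ratio was 0.90 (-0.17 to 1.88). In Ctrl the macrophage level was not set apart from that of T/NK cells, at 32.4 CPM (17.7 to 54.4). The macrophage-gated cells were shallow, with medians of 1085 and 968 UMIs. After thinning, 9.64% (4.25 to 18.1%) of the 83 Ctrl cells deep enough had a Pf4 UMI, against 2.90% of the lymphoid and pDC cells. In Map4k4-cKO 5.0%, or 1 cell, of the 20 macrophage-gated cells deep enough had one. With at least 4 macrophage markers required, Pf4 was at 119 CPM in Ctrl and 185 CPM in Map4k4-cKO. No other class with at least 20 cells in both libraries had a Pf4 level in Map4k4-cKO that was as high outside the megakaryocyte gate.

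Itga2b stood clear of the background in 2 of the larger classes besides megakaryocytes. Basophil/mast cells had 267 CPM (230 to 308) in Ctrl and 292 CPM (231 to 364) in Map4k4-cKO, with a UMI in 80.5% of 77 cells and 76.0% of 25 cells. After thinning it was in 31.1% and 20.8% of them, against 0.792% of the lymphoid and pDC cells of Ctrl. HSC/MPP cells had 42.8 CPM (37.8 to 48.3) and 42.0 CPM (34.8 to 50.3), a log2 ratio of -0.03 (-0.35 to 0.29), with 5.70% and 6.29% of cells after thinning. Erythroid progenitors had 8.83 CPM (6.60 to 11.6) and 12.05 CPM (8.24 to 17.0), the latter at 7.01 CPM with at least 4 markers. The log2 ratio in basophil/mast cells was 0.13 (-0.27 to 0.52), so in the 3 classes with most Itga2b the interval of the ratio held 0. In classes with little Itga2b the ratio was lower. It was -1.43 (-2.16 to -0.74) in primary granule progenitors and -1.77 (-2.77 to -0.85) in secondary granule neutrophils. Late neutrophils were at -2.21 (-3.20 to -1.28) and monocytes at -1.94 (-3.66 to -0.57). Their Ctrl levels lay between 2.04 and 5.81 CPM. Eosinophil-gated cells, of which there were 6 in Ctrl and 4 in Map4k4-cKO, held 12 and 7 UMIs of Itga2b. Their levels of 103 CPM (53.2 to 180) and 206 CPM (82.8 to 424) lay above those of HSC/MPP cells, but rest on these few cells. Megakaryocyte-gated, basophil/mast and HSC/MPP cells made up smaller shares of the kept cells in Map4k4-cKO. They were 0.313%, 0.372% and 2.37% there, against 0.723%, 0.773% and 4.77% in Ctrl. The mix of all 19 classes alone gave a log2 ratio of -1.07 for Itga2b, beside -1.34 over the whole libraries. The part of these 3 classes by themselves was not tested.

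HSC/MPP cells with Itga2b differed from those without it in some other genes of the lineage. In Ctrl, 149 of 475 had an Itga2b UMI, and their median depth of 11559 UMIs was close to the 10942 UMIs of the others. Gata1 was at 19.1 CPM (13.5 to 26.2) with Itga2b and 2.12 CPM (0.969 to 4.02) without, and Gata2 at 180 CPM (162 to 199) and 57.0 CPM (50.05 to 64.7). Gp5 was at 9.04 CPM (5.36 to 14.3) and 0.707 CPM (0.146 to 2.07). Itgb3, the partner chain of Itga2b, was at 14.1 CPM (9.34 to 20.3) and 13.7 CPM (10.4 to 17.7), with intervals that overlapped. Hlf, a stem cell transcription factor, was at 134 CPM (118 to 151) and 169 CPM (157 to 182). In Map4k4-cKO, Gata1 was at 20.3 CPM (12.2 to 31.7) in the 51 cells with Itga2b and 3.74 CPM (1.50 to 7.71) in the 108 without, and Gata2 at 153 CPM (129 to 180) and 69.5 CPM (58.0 to 82.5). Gp5 was at 8.55 CPM (3.69 to 16.8) and 1.07 CPM (0.129 to 3.86) there, with intervals that overlapped slightly, and Itgb3 at 17.1 CPM (9.77 to 27.8) and 9.08 CPM (5.29 to 14.5), which also overlapped. The Map4k4-cKO cells with Itga2b were deeper than those without, with medians of 18332 and 12726.5 UMIs. Gp9 was higher with Itga2b in both libraries, at 13.1 against 6.12 CPM in Ctrl and 19.2 against 5.88 CPM in Map4k4-cKO, where the intervals of Ctrl overlapped slightly and those of Map4k4-cKO did not. Vwf did not differ beyond its counting error, with 9 UMIs on either side in Ctrl. Pf4 was at 73.8 CPM (62.4 to 86.7) with Itga2b and 13.4 CPM (10.2 to 17.4) without in Ctrl. It was in 22.8% and 14.1% of these cells, and 1 cell with Itga2b held 76 of the 147 Pf4 UMIs. In Map4k4-cKO there were 3 Pf4 UMIs on either side. Cd9 was at 74.3 CPM (62.8 to 87.3) and 52.5 CPM (45.9 to 59.9) in Ctrl, with intervals that overlapped in Map4k4-cKO. Cells with and without a UMI were split by the members' own counts, and the cells of a library share 1 source.

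Vwf was low in all classes but the megakaryocyte gate. In the HSC/MPP class it had 18 UMIs in Ctrl, or 2.89 CPM (1.71 to 4.56), and 13 UMIs in Map4k4-cKO, or 4.63 CPM (2.47 to 7.92). In erythroid progenitors it had 51 and 17 UMIs, or 8.66 CPM (6.45 to 11.4) and 6.40 CPM (3.73 to 10.2), and in 197 Ctrl erythroblasts 27 UMIs, or 11.7 CPM (7.69 to 17.0). ProB cells of Ctrl were at 8.05 CPM (4.16 to 14.1), with 8 of their 12 UMIs in the cell with 5 megakaryocyte markers. In lymphoid and pDC cells of Ctrl, 1.28% had a Vwf UMI, against 12.6% of erythroid progenitors, whose median depth was 13762 UMIs. After thinning these shares were 0.396% and 1.89%, and 0 of 82 erythroid progenitors of Map4k4-cKO had a Vwf UMI. Basophil/mast cells had 0 UMIs of Vwf in both libraries, although they were rich in Itga2b. The endothelial gate, the other known source of Vwf, held 1 Ctrl cell and 2 Map4k4-cKO cells.

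Among the members other than Cd9, Gp9 had the least concentrated pattern. The megakaryocyte gate held 30.4% of its Ctrl UMIs and 18.5% of its Map4k4-cKO UMIs. In Ctrl erythroblasts it was at 25.5 CPM (19.4 to 32.9), with a UMI in 19.8% of 197 cells, while 0 of the 17 Map4k4-cKO erythroblasts had one, which allows a share of up to 17.6%. HSC/MPP cells had 8.34 CPM (6.23 to 10.9) and 10.3 CPM (6.92 to 14.8), and primary granule progenitors 4.46 CPM (3.42 to 5.72) and 3.78 CPM (2.86 to 4.91). From there it went down along the neutrophil lineage, to 2.95 and 2.18 CPM in secondary granule neutrophils and 1.45 and 0.586 CPM in late neutrophils. Lymphoid and pDC cells of Ctrl had 2 Gp9 UMIs in 784 cells. The primary granule class differed in depth, with medians of 13905.5 UMIs in Ctrl and 1744.5 in Map4k4-cKO.

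Ppbp was the rarest member. Of its 53 Ctrl UMIs, 31 lay in the megakaryocyte gate, and of its 12 Map4k4-cKO UMIs all 12 did, in 5 cells. It was found in 20.8% of the gated Ctrl cells and 23.8% of the gated Map4k4-cKO cells. The largest count in 1 cell was 5 UMIs in Ctrl and 4 in Map4k4-cKO. At 0 UMIs in 326 Ctrl erythroid progenitors and 77 basophil/mast cells, it was not detectable there at this depth.

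Most Cd9 UMIs lay in granulocytes, but in Ctrl the level of Cd9 was highest in the megakaryocyte gate. There it was at 651 CPM (606 to 699) in Ctrl and 483 CPM (414 to 561) in Map4k4-cKO. Secondary granule neutrophils held 58.3% of its Ctrl UMIs and 57.5% of its Map4k4-cKO UMIs, and the megakaryocyte gate 4.94% and 0.887%. Its level in secondary granule neutrophils was 481 CPM (471 to 491) in Ctrl and 480 CPM (471 to 489) in Map4k4-cKO, a log2 ratio of 0.00 (-0.04 to 0.04). In primary granule progenitors it was 118 CPM (112 to 123) and 113 CPM (108 to 119), in HSC/MPP cells 59.5 CPM (53.6 to 65.9) and 61.6 CPM (52.8 to 71.5), and in monocytes 34.1 CPM (30.4 to 38.1) and 29.8 CPM (25.4 to 34.7), with overlapping intervals in each. In late neutrophils Cd9 was at 411 CPM (394 to 429) in Ctrl and 474 CPM (462 to 487) in Map4k4-cKO, a log2 ratio of 0.21 (0.13 to 0.28). Late neutrophils were 18.9% of the kept cells in Ctrl and 27.8% in Map4k4-cKO. Basophil/mast cells had 209 and 255 CPM, macrophages 191 and 230 CPM (124 CPM in Ctrl with at least 4 markers), and erythroid progenitors 21.1 and 24.1 CPM, the lowest of the 11 classes with at least 20 cells in both libraries.

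Likeness of patterns was measured as Pearson's r of log2(CPM + 1) over 22 profiles, 11 classes in each of 2 libraries, among 12087 genes with at least 100 UMIs. The profiles of 1 library share its depth and its background RNA, so r is a description. For Pf4 the nearest genes were Cavin2 (r = 0.88), Robo3, F2rl2, Lgr5 and Mrvi1, and for Vwf they were Robo3 (0.96), Cavin2, Reep2, Slc24a5 and Rbpms2. For Ppbp they were Robo3 (0.96), Cavin2, F2rl2, Kcnj5 and Mrvi1, so that Cavin2 and Robo3 were among the nearest genes of all 3. Without the megakaryocyte profiles r of Pf4 with Cavin2 was 0.51, so much of this likeness rests on that class. Itga2b was closest to Prkg1 (0.95), Ptger3, Cavin1, Angpt1 and Arhgap6, and r with Prkg1 was 0.91 without the megakaryocyte profiles. F2rl2 is a marker of the megakaryocyte gate and Angpt1 of the HSC/MPP gate, so their likeness is partly set by the gates. Gp9 was closest to Prickle1 (0.93), Slc24a5, Pcdh7, Cplx2 and Exoc3l2. Cd9 was closest to Klf7 (0.82), Unc119, Syne1, 0610030E20Rik and Arrb2, none of which was near another member. Among the members, r was highest between Vwf and Ppbp (0.90) and between Pf4 and Ppbp (0.89), and lowest between Vwf and Cd9 (0.18).

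A wider list of 44 genes of megakaryocytes and platelets was laid beside the members. It holds 12 of the gate's own markers, which had to be high in gated cells, and Selp, Thbs1 and other genes that were not used for the gate. Among the 32 that were no gate markers, 31 had at least 20 UMIs in all. Of these, 25 were more than 2-fold higher in the gated cells than in all others in Ctrl, as were 25 in Map4k4-cKO. The share of all genes past this fold was not counted, so these numbers are a description and no support for the label of the gate. Timp3 had 255 CPM inside and 0.628 CPM outside in Ctrl, and Plek, the protein kinase C substrate of platelets, 809 and 69.4 CPM. F13a1, a clotting factor chain that monocytes also make, was lower inside (16.3 CPM) than outside (167 CPM), and so was F5 in Map4k4-cKO (11.2 and 58.3 CPM). P2ry12, the ADP receptor of platelets, had 0 UMIs in the gated cells of both libraries and 93 and 128 UMIs elsewhere.

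Over the whole libraries, 19 of the 40 list genes with at least 20 UMIs were at a log2 ratio of -1 or less and 1 was at 1 or more. The median was -0.82, beside -0.52 over all genes. With median-of-ratios scaling 9 were at -1 or less and 2 at 1 or more, beside 1155 and 708 of all 14406 genes. The granule gene Timp3 was at -3.95 (-4.675 to -3.296), from 342 UMIs to 20, and Thbs1, which encodes thrombospondin, at -3.39 (-3.73 to -3.06). Among the receptors, 7 of 12 were at -1 or less, beside 20.4% of all genes, both without this scaling. Gp1ba was at -2.13 (-2.88 to -1.44) and Treml1 at -1.93 (-2.44 to -1.45). With the scaling 4 receptors were at -1 or less and 1 at 1 or more. Of the 10 regulators, 6 were at -1 or less (1 of 10 with median-of-ratios scaling), among them Gata1 at -1.27 (-1.42 to -1.13), Gata2 at -1.42 (-1.53 to -1.31) and Zfpm1, the partner of GATA1, at -1.69 (-1.82 to -1.56). Of the Ctrl UMIs of Gata1, 5.14% lay in the megakaryocyte gate, of Gata2 11.96% and of Zfpm1 11.2%. Erythroid progenitors were 3.27% of the kept cells in Ctrl and 1.25% in Map4k4-cKO, and erythroblasts 1.98% and 0.253%, and their part in these ratios was not tested. Clu, which encodes the secreted chaperone clusterin, was the gene at 1 or more, at 1.15 (0.98 to 1.32).

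Inside the gate, the median of the regulators was -0.05, and 6 of 9 granule and secreted genes lay at -1 or less. None of the 10 regulators was past the 2-fold limit there, and Gata1 (0.12, -0.59 to 0.79), Fli1 (0.08, -0.20 to 0.35), Gfi1b (0.04, -0.62 to 0.66) and Meis1 (0.00, -0.37 to 0.35) had intervals that held 0. The median of the 9 granule and secreted genes with at least 20 UMIs in gated cells was -1.54. The 6 were Timp3 at -2.71 (-3.60 to -1.94), F5 at -2.02 (-3.95 to -0.58), Thbs1 at -1.92 (-4.26 to -0.26), Clu at -1.68 (-2.72 to -0.79), F13a1 at -1.54 (-4.69 to 0.51) and Mmrn1 at -1.07 (-1.72 to -0.47). Thbs1, F5 and F13a1 had 3, 4 and 2 UMIs in the gated Map4k4-cKO cells. Srgn, the granule proteoglycan with 720 and 319 UMIs, went the other way at 0.53 (0.34 to 0.72). In Ctrl, F13a1 (16.3 CPM inside, 167 CPM outside), F5 (45.4 and 48.3 CPM) and Srgn (617 and 1070 CPM) were not higher in the gate. Their ratios there, and the count and median of this group, may thus not be those of megakaryocytes alone. Ratios of the list with at least 4 markers are not given here. Of the 11 receptors counted, 3 were at -1 or less, namely Gp1ba at -2.29 (-4.21 to -0.87), Gp1bb at -1.72 (-2.98 to -0.68) and Itga2 at -1.46 (-3.83 to 0.24). Gp5 was at 0.38 (-0.07 to 0.82), and Gp9, of the same receptor complex, at -0.06. Over the whole list, 10 of 38 genes were at -1 or less and 0 at 1 or more, beside 9.26% and 2.58% of all genes. The median of the list was -0.43. Gp1ba, Gp1bb and Mmrn1 are markers of the gate, so their ratios in it may be partly set by the gate. Among the 29 list genes that were no gate markers, 7 were at -1 or less and 0 at 1 or more, with a median of -0.40. Timp3 and Gp1ba, with the lowest ratios in the gate, had their highest Ctrl levels in the cells with over 10000 CPM of Pf4, of which the Map4k4-cKO gate held 2. The part of the cells' Pf4 level in these differences was not tested.

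**Figure D5:**
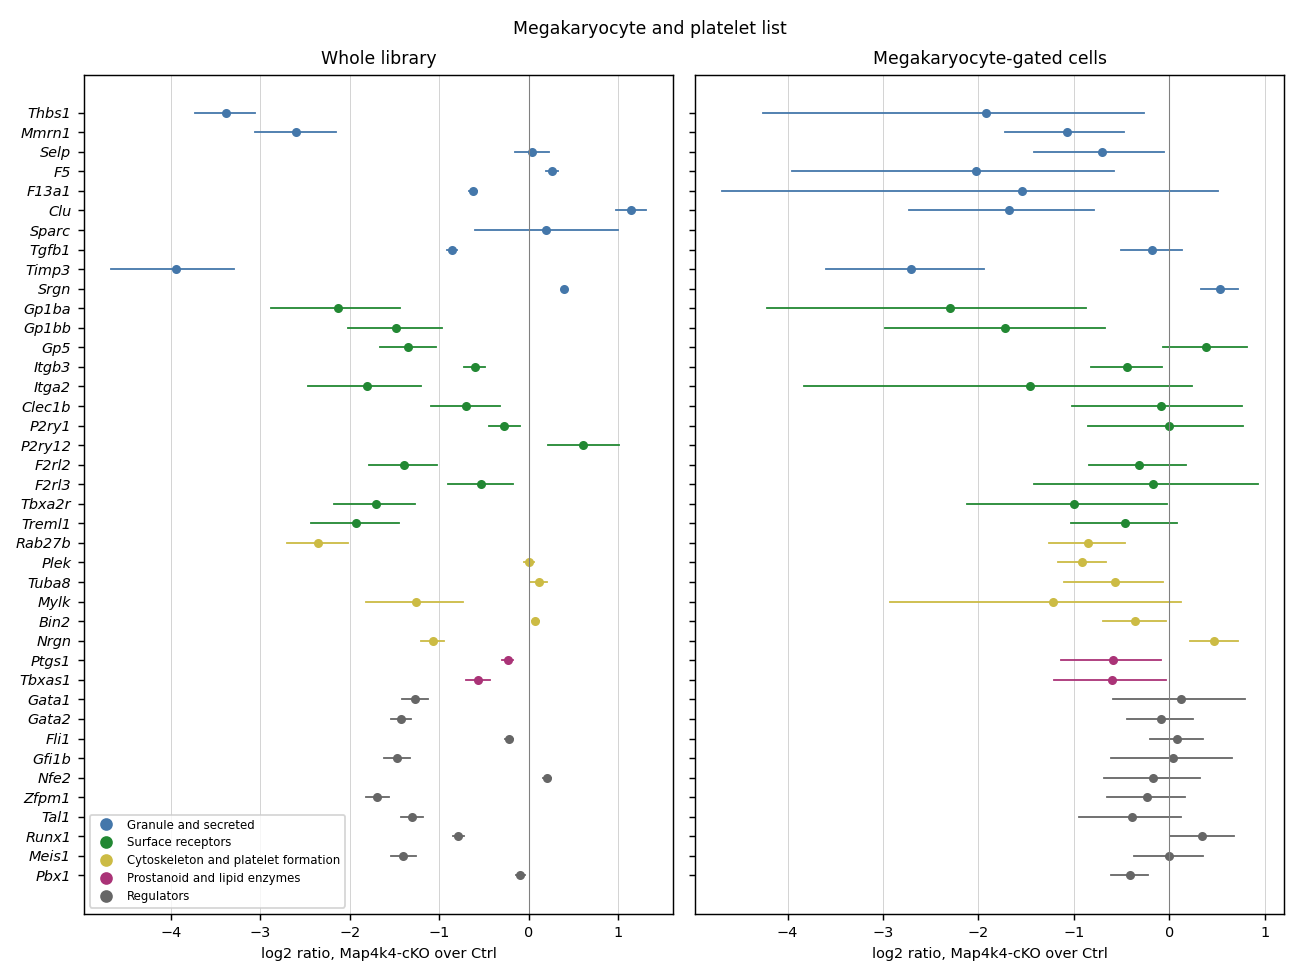
Log2 ratio of Map4k4-cKO over Ctrl (x) of the 40 list genes with at least 20 UMIs (y), over the whole libraries (left) and in megakaryocyte-gated cells (right, genes with at least 20 UMIs there), coloured by group. Bars are exact 95% binomial intervals. On the CPM scale 9 of 10 regulators lie below 0 at the left (6 at -1 or less, 1 with median-of-ratios scaling), and none passes the 2-fold limit at the right, and granule genes such as Timp3 and Clu lie below 0 at the right.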

How the data were processed

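The authors deposited raw UMI counts per gene and barcode for 1 Ctrl and 1 Map4k4-cKO library of a 3′ droplet assay, made with Cell Ranger 5.0.0 on mm10 (GRCm38) per the submitters' processing notes and the methods. No normalization had been applied. Tools were Python 3.11.15, numpy 2.4.6, scipy 1.17.1 and pandas 2.3.3. A barcode was kept as a cell when 200 to 9000 genes were detected and mitochondrial UMIs made up 30% or less, and no doublet caller was run. CPM are UMIs of a gene summed over cells, times 1000000, over all UMIs of those cells. Intervals are exact 95% Poisson (CPM), Clopper-Pearson (shares) or conditional binomial (log2 ratios) intervals and cover counting error only. A share of 0 was given a limit of 3 cells of the total.

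Cells were gated with 125 markers of 19 classes, none of them a member. A class needed at least 3 UMIs from 3 different markers, with a marker share at or above the mean of both libraries. Thinned shares used 1000 UMIs drawn per cell, leaving out shallower cells. A gene was counted as lower or higher at a log2 ratio of -1 or 1 among genes with at least 20 UMIs in the cells compared. Named genes were the members, the 5 genes most like each (at least 100 UMIs, pseudocount 1), the 10 with the highest ratio in barcodes with Pf4 and Itga2b, and a list of 44 genes (1 further gene of the list is not reported here). The members and lists were chosen with earlier results of these data known, and the Pf4 steps, their genes and the split of HSC/MPP cells after values were seen. The scripts for intervals, ratios and gates were tested on simulated counts. Alternatives were other cell filters, scalings, gates and thinning, and leaving out cells.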

Additional observations from a re-analysis of the deposited data

Results flagged for a closer look

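Among the 154 Map4k4-cKO barcodes that the cell filter left out, Cd9 stood at 118.2 CPM (70.1 to 187, from 18 UMIs), against 57.0 CPM (31.2 to 95.6, from 14 UMIs) in the 255 barcodes left out of Ctrl. The value drew attention because these barcodes enter no comparison and the level lay above that of Ctrl. The intervals overlap, and both levels are below those of kept neutrophils.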

How the results depend on the processing

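No paired analysis was possible because each condition had 1 library, and for the same reason no replicate could be left out. The alternatives that leave out the 2 cells with most Pf4, the gated cells or cells with a close second class, and all those of the ratios within the gate, were chosen after seeing the data. Under 41 alternative values, no whole-library ratio changed sign, and 24 lay within the counting interval of the reported value. With median-of-ratios scaling the log2 ratios were -1.87 for Pf4, -0.82 for Itga2b, -1.29 for Vwf, -0.38 for Gp9 and 1.01 for Cd9. As means of per-cell proportions they were -2.70 for Pf4, -3.04 for Ppbp and 0.32 for Cd9. Without the barcodes with Pf4 and Itga2b they were -3.37 for Pf4, -0.90 for Itga2b, -1.19 for Vwf, -0.65 for Gp9 and 0.52 for Cd9. Without the gated cells they were -4.00 for Pf4, -1.29 for Vwf and 0.54 for Cd9, and without the 2 cells with most Pf4 the ratio of Pf4 was -3.59.

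In the megakaryocyte gate, Pf4 was at -0.17, Vwf at -0.080 and Cd9 at -0.11 with at least 4 markers. Pf4 was at -1.77 and Vwf at -0.90 without the 2 cells with most Pf4, and Pf4 was at -0.93 as a mean of per-cell proportions and -0.54 without cells with a close second class. With at least 4 markers the levels were 9408 CPM for Pf4 in Ctrl, and 8354 CPM for Pf4, 963 CPM for Itga2b, 355 CPM for Vwf and 631 CPM for Cd9 in Map4k4-cKO. Why the gated ratios moved was not tested.

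Barcodes with Pf4 and Itga2b were 0.591% in Ctrl and 0.112% in Map4k4-cKO after thinning, 0.849% and 0.105% outside the gate, and 0.763% and 0.208% with at least 2 UMIs of each gene. In the gate, thinned shares in Ctrl were 77.8% for Pf4, 66.7% for Itga2b, 20.8% for Vwf, 8.33% for Gp9, 2.78% for Ppbp and 27.8% for Cd9. In Map4k4-cKO they were 38.1% for Itga2b, 19.0% for Vwf, 14.3% for Gp9 and 28.6% for Cd9. Of 240 levels in other classes, 224 lay within their interval under the other gates and floors. Shares moved more, and after thinning 33 of 120 in other classes and 2 of 12 in the gate lay within theirs. In the gate, 19 of 24 levels and 23 of 30 log2 ratios lay within their interval. Ppbp, with 53 and 12 UMIs, and all values in 21 gated Map4k4-cKO cells were limited by counts.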
